A study of Mus musculus with 24 samples.

Results

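The genes that decide whether a blood stem cell passes through the G1 phase of the cell cycle were examined in 24 mRNA-seq libraries of mouse bone marrow cells. They are 10 genes chosen by symbol, out of the 55376 gene symbols in the count files: the D-type cyclins Ccnd1, Ccnd2 and Ccnd3, their kinases Cdk4 and Cdk6, the CDK inhibitors Cdkn1b (p27), Cdkn2c (p18) and Cdkn2d (p19), and the pocket proteins Rb1 and Rbl2 (p130). D-type cyclins rise with growth signals and bind CDK4 or CDK6, and the active pair phosphorylates the pocket proteins, which then release E2F transcription factors and let S phase genes be transcribed. INK4 inhibitors such as p18 and p19 bind the 2 kinases directly, whereas p27 acts mainly on complexes that contain a cyclin. In hematopoiesis, most long-term stem cells rest outside the cycle, low CDK6 is a known feature of that rest, and p18 and p27 are known as brakes on stem and progenitor cell division.

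HSCs were sorted as Lineage-Sca1+cKit+ (LSK) CD34- Flk2- CD150+ cells, and MPP3 cells are myeloid-biased multipotent progenitors, the next stage of differentiation. All animals were male, and the groups differ by the Zfp36 locus, by age and by cell type. TTPΔARE mice (TTPdeltaARE in the sample titles) carry on both alleles a Zfp36 gene without the AU-rich element of its 3′ UTR, in every cell of the body, and WT mice are their littermates. There were 4 Y-WT and 4 Y-TTPΔARE libraries of HSCs of young mice, and 5 M-WT and 3 M-TTPΔARE libraries of HSCs of middle-aged mice of about a year. MPP3 cells came only from the young, with 4 libraries of each genotype, and no animal was treated. MPP3 identity is taken from the titles and the cell type field, whereas the source field of these libraries names stem cells. Zfp36 encodes tristetraprolin (TTP), an RNA-binding protein that speeds the decay of mRNAs with AU-rich elements. The comparisons ask whether the mRNAs of the G1 module differ between cell types, with more TTP, and with age. The labels do not say whether libraries of a group came from separate animals, so each p-value measures only the spread between these libraries.

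The libraries held 24261371 to 39934554 counts each, and every one of the 10 genes passed the filter on low counts and the limit on mean level in every comparison. Levels below are CPM, counts scaled to library size, after TMM scaling over all 24 libraries. Zfp36 itself was higher in every TTPΔARE library than in every WT library of the same cells, which is the direction the genotype labels give. Its levels were 95.5 ± 12.7 against 48.8 ± 18.3 CPM in young HSCs, 101.3 ± 9.41 against 52.6 ± 7.49 CPM in middle-aged HSCs and 98.1 ± 18.7 against 28.6 ± 6.04 CPM in MPP3 cells (SD, adjusted p = 0.238, 0.002 and 0.000646). Of the HSC markers, Slamf1, the CD150 gene of the sort, was at 55.5 to 138 CPM in HSC libraries and 0.977 to 3.27 CPM in MPP3 libraries, and Mecom, a stem cell factor, at 214 to 412 CPM and 58.0 to 129 CPM. The 7 myeloid progenitor markers gave 106.0 to 275 CPM in HSCs and 369.8 to 2378 CPM in MPP3 cells. The library Y-WT HSC 1 stood apart within its group, with 60.7 CPM summed over 1736 Olfr and Vmn genes (olfactory and vomeronasal receptors, foreign to blood cells), against 575 to 975 CPM in the other 3 Y-WT HSC libraries. Y-TTPΔARE HSC 1 was likewise at 77.6 CPM, against 321 to 381 CPM in the other 3 of its group. Those 3 Y-WT HSC libraries were the highest of all 24, and the other groups ran from 19.4 to 467 CPM. The Y-WT HSC group was also split by the 4 endothelial markers. They summed to 278 and 295 CPM in Y-WT HSC 1 and 4, and to 154 and 140 CPM in Y-WT HSC 2 and 3. In the other 3 HSC groups they summed to 130 to 155 CPM. Their part in the results below was not tested. The numbers in the sample titles run separately for middle-aged HSCs, young HSCs and MPP3 cells, and whether these were made as separate sets is not given in the sources used here. The comparisons of ages and of cell types coincide with these runs. A difference between such sets could therefore not be told apart from age or cell type.

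Because TTP acts through AU-rich elements, the 3′ UTRs of the 10 genes were searched on the mRNA strand for the pentamer ATTTA, for the heptamer TATTTAT that contains it, and for the nonamer TTATTTATT that contains the heptamer, in the transcript of each gene with the longest 3′ UTR (GENCODE M21, GRCm38). Of 11650 genes above the level limit below that have an annotated 3′ UTR, 70.4% hold the pentamer, 30.2% the heptamer and 8.09% the nonamer. All 10 hold at least 1 pentamer, 5 hold the heptamer, and Cdk6 is the only one of them with the nonamer, which 47.4% of 76 genes with a 3′ UTR within 20% of its length also hold. Among genes of like length, 40.1% (Cdkn2c) to 99.7% (Ccnd2) hold the pentamer. For the heptamer that share is 90.8% for Cdk6, 55.4% for Cdkn1b, 46.0% for Ccnd1, 31.5% for Rbl2 and 21.3% for Cdkn2d, which hold it. For those that do not, it runs from 9.13% (Cdkn2c) to 66.7% (Ccnd2). The 8 heptamers are shown in 25-base windows, with the heptamer in capitals, to let the sites be compared with the fold changes below. The Cdk6 window that starts at 3528498 holds the nonamer, which adds the t on each side of the capitals.
Ccnd1, chr7:144931312-144931336, minus strand: acagaagagTATTTATgggaaaggc
Cdk6, chr5:3528498-3528522, plus strand: catgtatatTATTTATtgctaagcc
Cdk6, chr5:3530825-3530849, plus strand: aaatttatgTATTTATtgtctggtc
Cdkn1b, chr6:134924120-134924144, plus strand: tagtgcctgTATTTATccatcatta
Cdkn1b, chr6:134924748-134924772, plus strand: catggttgcTATTTATttctacatg
Cdkn1b, chr6:134925268-134925292, plus strand: atactaactTATTTATgttaaaaag
Cdkn2d, chr9:21288467-21288491, minus strand: aaatataaaTATTTATtgctttatg
Rbl2, chr8:91123192-91123216, plus strand: tttgctgtaTATTTATgatggcact

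The density of pentamers set 2 genes apart. Rb1 holds 11 in a 3′ UTR of 1709 bases, against a median of 2 in the 1839 genes of like length, and none of them lies in a heptamer. Ccnd2 holds 2 in 5173 bases, against a median of 9 in 622 genes of like length. Cdk6 has the longest 3′ UTR of the 10, at 10217 bases with 15 pentamers (median 18.5 in like lengths), and Cdkn1b holds 10 in 3439 bases (median 5). Ccnd1 and Rbl2 hold 5 each, and Ccnd3, Cdk4, Cdkn2c and Cdkn2d hold 1 each. These matches are letters in an annotated transcript, and which 3′ UTR end these cells use was not tested.

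Per kilobase of exon, the module was dominated by Cdk4 in every group. Cdk4 (chr10:127063534-127067920) stood at 124 ± 18.9 CPM per kb in Y-WT HSCs (SD, n = 4), and Ccnd2 (chr6:127125162-127152193) followed at 56.3 ± 11.0 CPM per kb. Cdkn2d (chr9:21288410-21291407), Ccnd3 (chr17:47505051-47599691) and Rbl2 (chr8:91070057-91123844) came next in Y-WT HSCs, with mean levels of 35.9, 32.3 and 25.1 CPM per kb. Rb1 (chr14:73183673-73325822) reached 12.4, Cdk6 (chr5:3341485-3531008) 9.20 and Ccnd1 (chr7:144929931-144939925) 7.19 CPM per kb. Cdkn2c (chr4:109660876-109667189) and Cdkn1b (chr6:134920401-134925513) were the lowest of the 10 in all 4 HSC groups, at 4.05 and 3.38 CPM per kb in Y-WT. In Y-WT MPP3 cells Cdk4 reached 203 and Cdk6 28.7 CPM per kb, and Cdk6 moved from the seventh place among the 10 to the fourth. All coordinates are GRCm38, and exons of 7 of these genes overlap a gene on the opposite strand, for 23.4% of the exon bases of Ccnd1 (LTO1), 19.7% of Cdk4 (Tspan31), 11.8% and 9.17% of Rbl2 (Gm45464 and Aktip) and 8.11% or less in the others. Whether the counting used strand is not given in the sources used here, so reads in these stretches cannot be told apart.

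**Figure D1:**
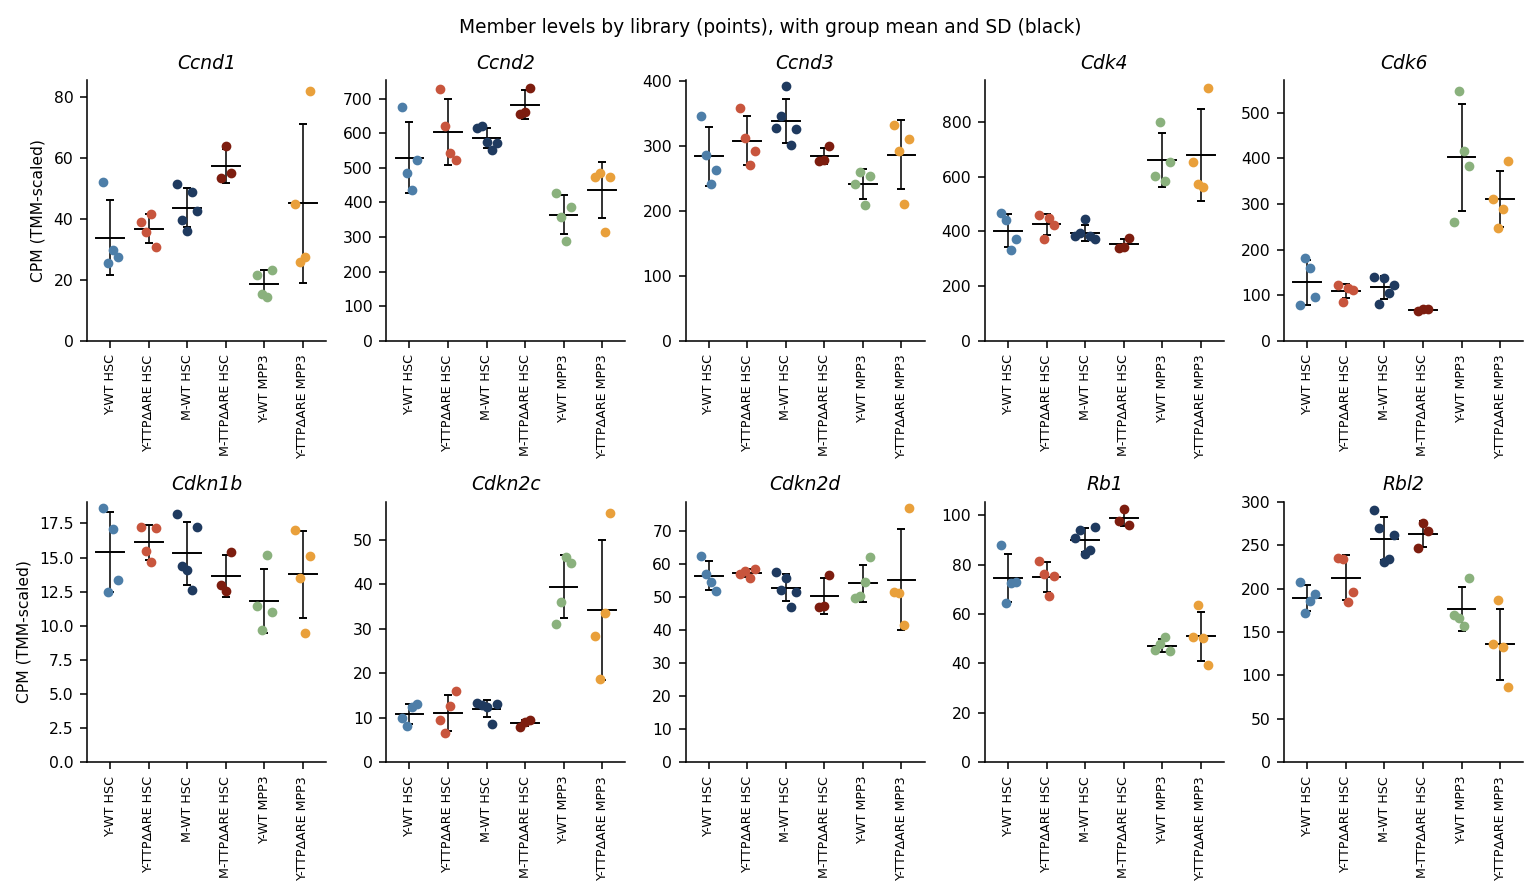
Each panel plots 1 gene in CPM (linear axis from 0) for the 6 groups; points are libraries, the black line is the group mean and the bar its SD. Cdk4, Cdk6 and Cdkn2c sit higher and Rb1 lower in MPP3 cells than in HSCs, and the 3 M-TTPΔARE points of Cdk6, at 65.8, 69.4 and 69.1 CPM, sit below all other HSC points.

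In WT mice, MPP3 cells held more of both kinases and of the inhibitor Cdkn2c than HSCs did, and less Rb1. Thus 4 of the 10 genes were called, where 31.6% of the 13467 genes over the level limit were called, a share of the 10 near that background. The groups did not overlap for 6 of the 10 genes, beside 38.8% of all genes. To be called, a gene needed an adjusted p under 0.05 (edgeR's quasi-likelihood F test, Benjamini-Hochberg over all genes tested), a fold change over 1.2 and a mean log2 CPM over 1.5. The median log2 fold change of the 10 genes was -0.16, beside 0.11 over all genes above the limit. In bulk samples, fewer cells that express a gene and less of its RNA per cell cannot be told apart.

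Cdk6, the kinase whose level is known to set how readily stem cells leave rest, was the kinase with the larger difference. Its levels were 79.0, 181, 160.0 and 95.3 CPM in the Y-WT HSC libraries and 260.3, 547, 417 and 384 CPM in the Y-WT MPP3 libraries. The lowest MPP3 library lay above the highest HSC library, and the fold change was 3.19 (log2 fold change 1.67, SE 0.25, adjusted p = 0.000144). In TTPΔARE mice the levels were 123, 85.8, 116 and 112 CPM in HSCs and 309.9, 248, 289 and 395 CPM in MPP3 cells, again without overlap (log2 fold change 1.49, SE 0.25, adjusted p = 0.000401). Cdk4, the kinase that dividing cells of most tissues use, rose by less, from 403 ± 61.3 (SD, n = 4) to 659.9 ± 98.6 (SD, n = 4) CPM in WT (log2 fold change 0.72, SE 0.18, adjusted p = 0.00921). In TTPΔARE it went from 427 ± 38.5 (SD, n = 4) to 678 ± 169 (SD, n = 4) CPM (log2 fold change 0.66, SE 0.18, adjusted p = 0.018). The call of Cdk4 in WT was lost when the receptor genes entered as a covariate (0.58, adjusted p = 0.0608). The sum of those genes was 60.7 to 975 CPM in Y-WT HSCs and 19.4 to 289 CPM in Y-WT MPP3 cells.

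Cdkn2c, the INK4 inhibitor that binds both kinases, rose beside them. It was at 9.98, 8.19, 12.3 and 13.0 CPM in Y-WT HSCs and at 31.2, 35.9, 46.2 and 44.7 CPM in Y-WT MPP3 cells, so that the cell types did not overlap (log2 fold change 1.88, SE 0.33, adjusted p = 0.000669). In TTPΔARE mice it went from 9.40, 6.59, 12.5 and 16.0 CPM to 28.3, 18.8, 33.6 and 56.1 CPM (log2 fold change 1.63, SE 0.33, adjusted p = 0.00219). The MPP3 library with the least, Y-TTPΔARE MPP3 2, was still above the HSC library with the most. The other inhibitors were not called. Cdkn2d had a log2 fold change of -0.042 in WT and -0.064 in TTPΔARE. Cdkn1b, which limits CDK2, had -0.35 (SE 0.20) and -0.26 (SE 0.20). Cdkn2c made up 7.76% to 12.8% of the 2 INK4 mRNAs in Y-WT HSCs and 26.9% to 33.2% in Y-WT MPP3 cells, per kilobase.

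Of the pocket proteins, which hold E2F factors in check, Rb1 was lower in MPP3 cells in both genotypes. Rb1 was at 87.8, 64.5, 72.6 and 73.1 CPM in Y-WT HSCs and at 45.6, 47.8, 50.7 and 45.0 CPM in Y-WT MPP3 cells (log2 fold change -0.64, SE 0.13, adjusted p = 0.00248). In TTPΔARE the levels were 81.5, 76.2, 67.2 and 75.3 CPM in HSCs and 50.8, 63.6, 50.3 and 39.4 CPM in MPP3 cells (log2 fold change -0.60, SE 0.13, adjusted p = 0.00425). All 8 HSC libraries of young mice lay above all 8 MPP3 libraries. Rbl2, the pocket protein that gathers in resting cells as part of the DREAM repressor, was called in TTPΔARE alone. There 5 of the 10 genes were called (background 28.6%), and 5 did not overlap (background 30.6%). The levels of Rbl2 were 235, 234, 184 and 196 CPM in HSCs and 136, 187, 133 and 86.6 CPM in MPP3 cells (log2 fold change -0.70, SE 0.16, adjusted p = 0.00489). The 2 sets overlap at Y-TTPΔARE MPP3 2, which reached 187 CPM. Without the library Y-TTPΔARE HSC 2 the call was lost (log2 fold change -0.57, adjusted p = 0.056). In WT its log2 fold change was -0.089 (SE 0.16), and the difference between the genotypes was -0.61 (SE 0.22, unadjusted p = 0.0145, adjusted p = 0.306), which did not pass.

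None of the D-type cyclins was called between the cell types. Ccnd2, the most abundant of them, was at 675, 485, 435 and 523 CPM in Y-WT HSCs and 426, 357, 289.8 and 386 CPM in Y-WT MPP3 cells, without overlap (log2 fold change -0.53, SE 0.18, adjusted p = 0.0532). In TTPΔARE it was at 729, 621, 542 and 521 CPM in HSCs and 474, 485, 313 and 472 CPM in MPP3 cells (log2 fold change -0.50, SE 0.18, adjusted p = 0.0719). Libraries of TTPΔARE mice with the same replicate number had weakly correlated deviations in the 2 cell types (0.145 to 0.229). Differently numbered libraries were not compared, so whether the numbers pair these samples is not shown. With the replicate number as a block Ccnd2 was called in TTPΔARE as well (log2 fold change -0.51, adjusted p = 0.0184), which made 6 called genes. In WT it was called under 8 of the 9 other settings tried, with adjusted p between 0.000969 and 0.0597 over all 9. In TTPΔARE it was called under 6 of these 9, with adjusted p between 0.00703 and 0.0867. Of 16 fits that left out a library, it was called in 8 in WT and in 6 in TTPΔARE. Ccnd1, the cyclin that responds to growth factors, had log2 fold changes of -0.85 (SE 0.35, adjusted p = 0.109) in WT and 0.30 (SE 0.35) in TTPΔARE. Those of Ccnd3 were -0.23 (SE 0.15) and -0.14 (SE 0.15). In the test of the difference between genotypes 0 of the 10 genes were called by edgeR or DESeq2 (background 0.839%). An unadjusted p under 0.05 was found for 2 of them (background 17.5%), Rbl2, above, and Ccnd1 (log2 fold change 1.14, SE 0.49, adjusted p = 0.404).

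**Figure D2:**
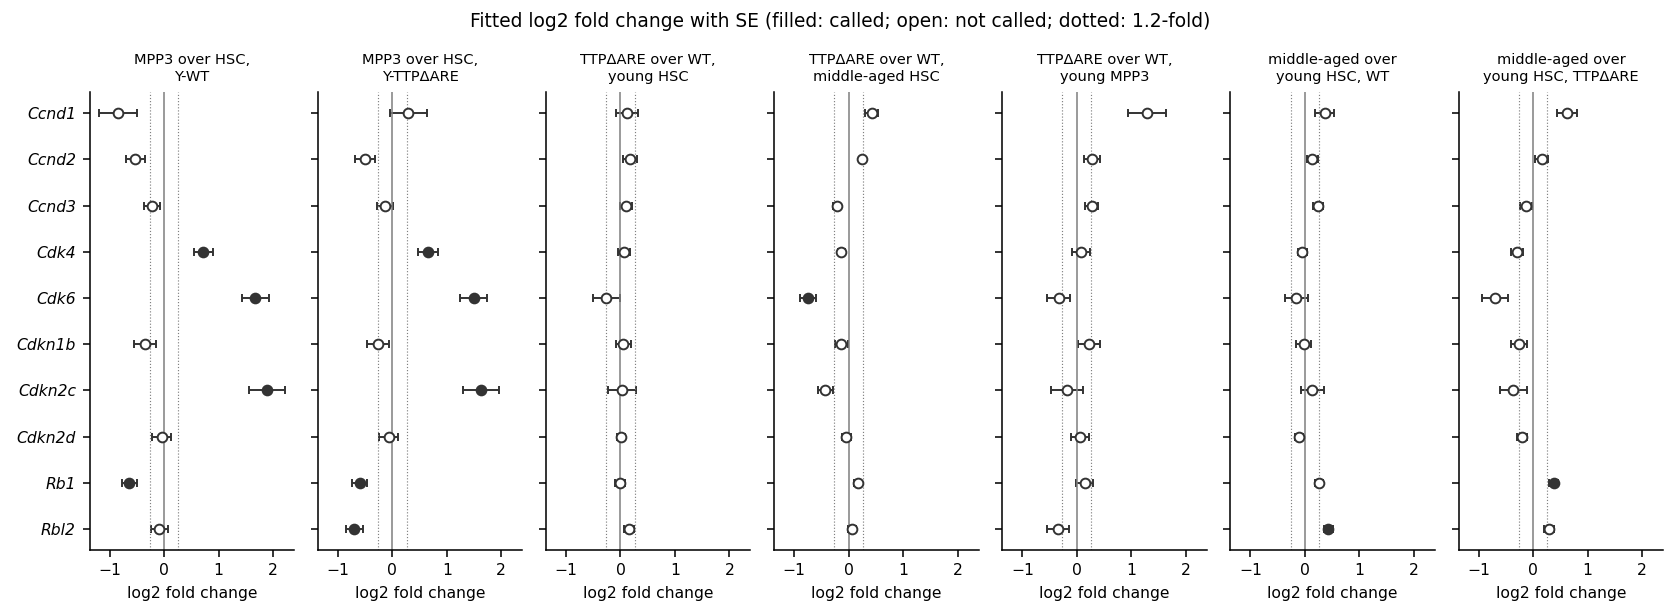
Log2 fold changes of the 10 genes in the 7 comparisons (horizontal axis, 1 panel each), with bars of 1 SE; filled points were called, open points were not, and dotted lines mark a 1.2-fold change. Cdk4, Cdk6, Cdkn2c and Rb1 are filled in both panels of MPP3 over HSC, and Cdk6 is the only filled point among the 3 panels of TTPΔARE over WT.

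As sums per kilobase, the balance of kinase to cyclin mRNA separated the cell types. The ratio of Cdk4 plus Cdk6 to the 3 D-type cyclins was 1.22 to 1.66 in Y-WT HSCs and 2.63 to 4.03 in Y-WT MPP3 cells, and 1.11 to 1.51 against 2.15 to 3.07 in TTPΔARE. No MPP3 library was as low as any HSC library. Within the kinases, Cdk6 made up 3.78 to 10.04% in Y-WT HSCs and 9.14 to 14.2% in Y-WT MPP3 cells, where the 2 ranges overlap. Among the cyclins, Ccnd2 stayed the largest share in every library, at 48.7% to 62.9%. These shares are computed from the levels tested above and are given as a description.

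**Figure D3:**
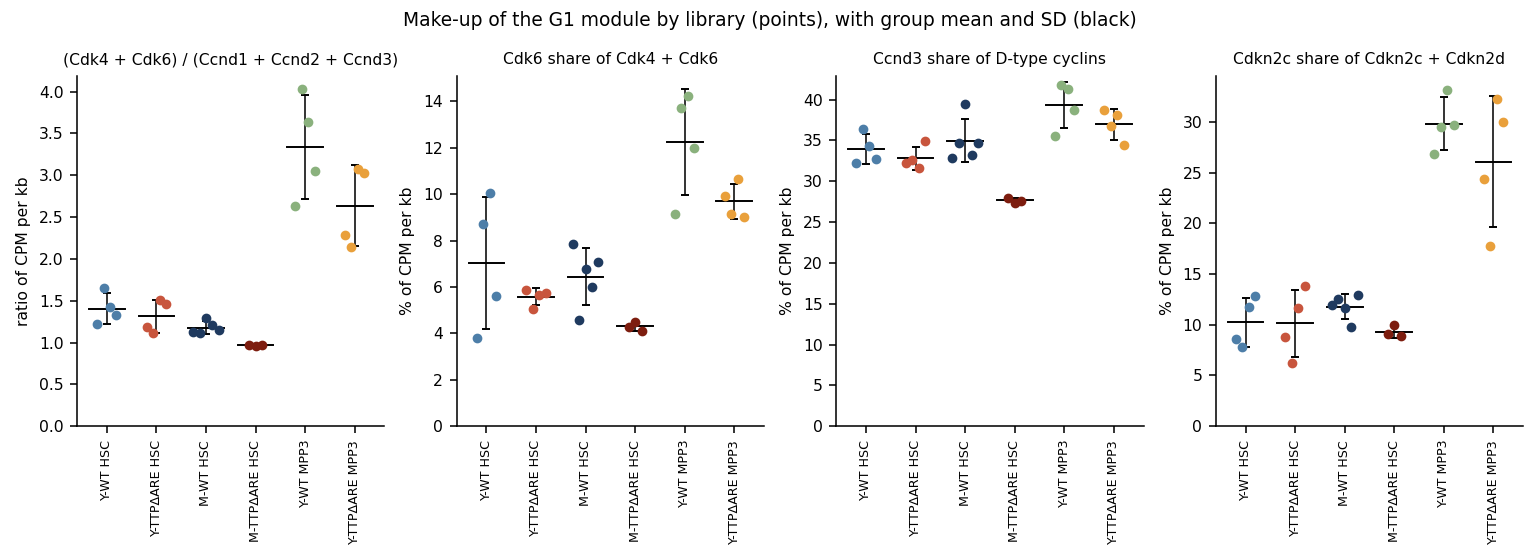
Summaries of the module per library, each on a linear axis from 0: the ratio of kinase to D-type cyclin mRNA, and the shares of Cdk6, Ccnd3 and Cdkn2c within their classes, in percent of CPM per kilobase; points are libraries, lines are group means and bars SDs. The ratio lies between 0.954 and 1.66 in HSCs and between 2.15 and 4.03 in MPP3 cells.

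The genes downstream of the module were higher in MPP3 cells, as the kinases were. Of 20 E2F target genes, which include the MCM helicase and nucleotide synthesis genes, 20 were higher in MPP3 cells in each genotype. Of 13467 genes over the level limit, 2704 were higher and 1553 lower in WT (1902 and 2358 with upper-quartile factors), and 1849 were higher and 1997 lower in TTPΔARE. Rrm2, a subunit of ribonucleotide reductase, was higher by a log2 fold change of 2.16 in WT (SE 0.20, adjusted p = 1.9e-06). The median of the 20 genes was 1.41 in WT and 1.19 in TTPΔARE beside 0.11 and 0.0027 over all genes. All 16 genes of G2 and mitosis were higher as well, such as Mki67, the proliferation marker, at 2.48 in WT (SE 0.20, adjusted p = 5.71e-07). The partners of the pocket proteins were higher for 9 of 11 genes in WT and 7 of 11 in TTPΔARE, led by E2f8 (2.34, SE 0.19, adjusted p = 5.21e-07, in WT). Of the 5 MuvB core genes of the DREAM complex, 3 were higher in WT and 1 in TTPΔARE. Of the cyclin E and A genes with CDK2 and its activators, 5 of the 8 above the level limit were higher in each genotype, among them Ccna2 (2.15, SE 0.17, adjusted p = 4.79e-07, in WT).

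The CDK inhibitors outside the 10 genes did not share 1 direction. Cdkn1c (p57), a known brake on stem cells, was lower in MPP3 cells (in WT -2.34, SE 0.25, adjusted p = 6.43e-06, and in TTPΔARE -2.69, SE 0.26, adjusted p = 2.2e-06). Cdkn1a (p21), the inhibitor induced by p53, was higher (in WT 0.75, SE 0.22, adjusted p = 0.0227, and in TTPΔARE 1.37, SE 0.22, adjusted p = 0.000267). Cdkn3 was also higher in both genotypes, while Cdkn2a and Cdkn2b did not reach the level limit. Upstream of cyclin D, Mycn was lower (-1.33, SE 0.22, adjusted p = 0.00037, in WT) and Myc higher (0.76, SE 0.13, adjusted p = 0.000556). Of the 11 genes of that list above the level limit, 5 were higher and 2 lower in WT, and 2 and 2 in TTPΔARE. Of 11 genes that turn over G1 regulators, 4 were higher in WT and 3 in TTPΔARE, such as Skp2, the F-box protein that targets p27 (0.98, SE 0.19, adjusted p = 0.00123, in WT). These counts stand beside 2704 higher and 1553 lower of 13467 genes in WT, and 1849 and 1997 in TTPΔARE. Markers of T and NK cells moved with this comparison too, at a sum of 55.2 to 68.8 CPM over 6 genes in Y-WT HSCs and 178 to 333 CPM in Y-WT MPP3 cells, and their part in it was not tested. Most of that sum was Nkg7 (38.3 and 236 CPM on average), while Cd3e (5.51 and 0.173 CPM), Cd3g (6.95 and 0.294 CPM), Trbc2 and Cd8a were lower in MPP3 cells.

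**Figure D4:**
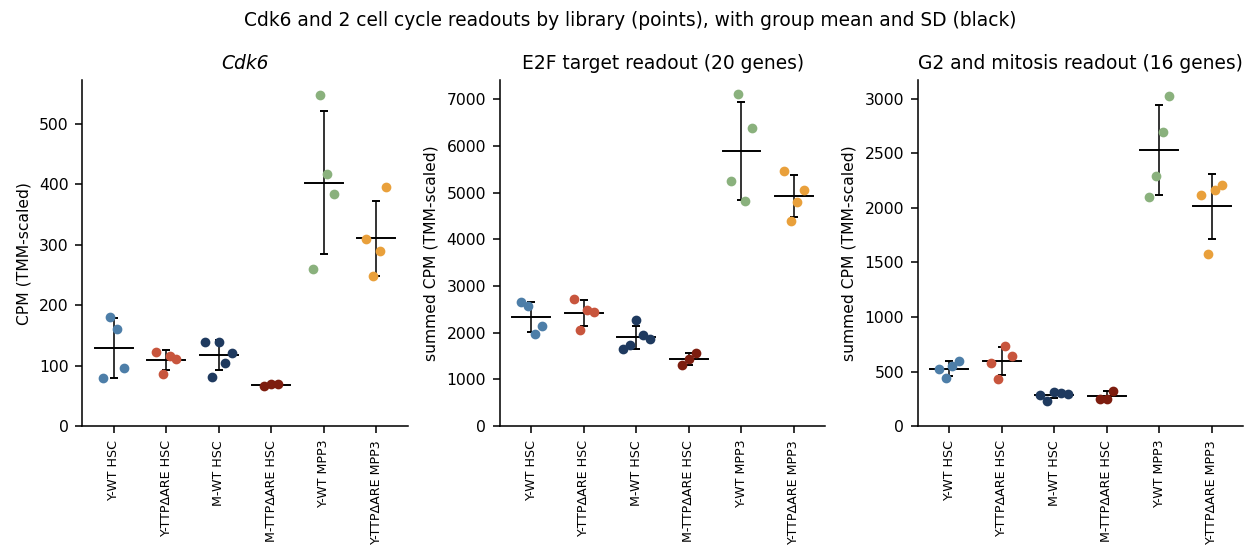
Cdk6 (left, CPM) beside the summed CPM of 20 E2F target genes (middle) and of 16 genes of G2 and mitosis (right) in each library, on linear axes from 0; points are libraries, lines are group means and bars SDs. The E2F sum runs from 1320.2 CPM in the lowest M-TTPΔARE HSC library to 7120.0 CPM in the highest Y-WT MPP3 library.

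Between the genotypes, Cdk6 in middle-aged HSCs was the only one of the 10 genes that was called in any of the 3 comparisons. In middle-aged HSCs 1 of the 10 genes was called, beside 2.22% of 13413 genes. Cdk6 was at 139.7, 81.2, 139, 105 and 121 CPM in the 5 M-WT libraries and at 65.8, 69.4 and 69.1 CPM in the 3 M-TTPΔARE libraries. The lowest M-WT library, M-WT HSC 2, lay above all 3 M-TTPΔARE libraries, which were also lower than each of the 8 young HSC libraries. The group means were 117 ± 24.6 (SD, n = 5) and 68.1 ± 2.02 (SD, n = 3) CPM, a 1.68-fold lower level (log2 fold change -0.75, SE 0.15, adjusted p = 0.033). The call rests on few libraries. It was lost in 5 of 8 fits that left out a library (M-WT HSC 3 or 5, or any M-TTPΔARE library), with adjusted p between 0.0578 and 0.13. It was also lost with the replicate block (adjusted p = 0.138), with the receptor genes as a covariate (adjusted p = 0.18) and with all 24 libraries in 1 fit (adjusted p = 0.473). Over these settings and left-out libraries its log2 fold change stayed between -0.86 and -0.63. Receptor genes summed to 40.6 to 199 CPM in M-WT and 87.3 to 374 CPM in M-TTPΔARE. The 4 megakaryocyte markers summed to 533 to 650.4 CPM and 369.8 to 455 CPM. Of these, Vwf averaged 405 and 324 CPM, Itga2b 134 and 63.9 CPM, Pf4 23.9 and 33.4 CPM, the other way, and Gp1bb was near 0. The 7 myeloid progenitor markers summed to 211 to 275 CPM in M-WT and 182 to 186 CPM in M-TTPΔARE, without overlap. Most of that sum was Prtn3 (224 and 169 CPM on average), while Csf1r averaged 13.4 and 13.3 CPM. The other members of that list were near 0 in both groups. Cd34, the gene of a protein the sort excluded, averaged 202 and 119 CPM. The part of these lists and genes in the result was not tested.

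The cyclins in middle-aged HSCs separated without passing every limit. Ccnd2 was at 616, 619.6, 574, 553 and 572 CPM in M-WT and at 655, 661 and 731 CPM in M-TTPΔARE. Its adjusted p was under 0.05 and its fold change was 1.19, just under the limit of 1.2 (log2 fold change 0.25, SE 0.047, adjusted p = 0.0254). Ccnd1 was at 51.5, 39.8, 35.98, 49.0 and 42.5 against 53.5, 63.9 and 55.1 CPM (log2 fold change 0.43, SE 0.12, adjusted p = 0.101) and was called by DESeq2 (adjusted p = 0.00954). Ccnd3, the cyclin most used by lymphoid cells, lay on the other side, at 327, 346, 392, 302 and 326 against 276, 277 and 299 CPM (log2 fold change -0.22, SE 0.072, adjusted p = 0.163). In all, 5 of the 10 genes did not overlap between M-WT and M-TTPΔARE (Ccnd1, Ccnd2, Ccnd3, Cdk6 and Rb1), beside 13.2% of all genes. Per kilobase, the Ccnd3 share of the D-type cyclins was 32.8 to 39.4% in M-WT and 27.4 to 28.0% in M-TTPΔARE. The ratio of kinases to cyclins was 1.11 to 1.29 and 0.954 to 0.976, the lowest of the 6 groups.

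No inhibitor or pocket protein of the 10 genes was called in middle-aged HSCs. Rb1 was at 90.8, 94.3, 84.5, 85.8 and 95.1 CPM in M-WT and 97.9, 102 and 96.2 CPM in M-TTPΔARE (log2 fold change 0.17, SE 0.061, adjusted p = 0.214). Cdkn2c was at 13.3, 12.7, 12.5, 8.65 and 13.1 against 7.99, 8.96 and 9.40 CPM (log2 fold change -0.43, SE 0.14, adjusted p = 0.171). It was called in 1 of 8 fits that left out a library, the fit without M-WT HSC 4 (log2 fold change -0.52, adjusted p = 0.0415). Cdkn1b, Cdkn2d, Rbl2 and Cdk4 had log2 fold changes between -0.13 and 0.063. Outside the 10 genes, Cdkn1c was higher in M-TTPΔARE (0.48, SE 0.081, adjusted p = 0.0163), and Rbl1 (p107), the remaining pocket protein, was lower (-0.36, SE 0.068, adjusted p = 0.0269). Of the 20 E2F targets, 3 were lower, Mcm3 (-0.39, SE 0.085, adjusted p = 0.0499), Mcm6 (-0.41, SE 0.089, adjusted p = 0.0498) and Gins2 (-0.34, SE 0.073, adjusted p = 0.047). The median of the 20 E2F targets was -0.38 on the log2 scale, beside -0.031 over all genes, and their sum was 1658 to 2278 CPM in M-WT and 1320.2 to 1565 CPM in M-TTPΔARE. None of the 16 genes of G2 and mitosis was called, and their median was -0.033. Of the 17 anti-proliferative and quiescence genes above the level limit, 2 were higher and 1 was lower. The 2 were Gas6 (1.16, SE 0.12, adjusted p = 0.002) and Gfi1 (0.61, SE 0.094, adjusted p = 0.00968), a repressor known to restrain stem cell division. Of all 13413 genes, 148 were higher and 150 lower.

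In young HSCs 0 of the 10 genes were called by edgeR, by its likelihood ratio test or by DESeq2 (background 0.0435% of 13786 genes, or 6 genes). An unadjusted p under 0.05 was found for 0 of them (background 10.3%), and 0 were without overlap (background 5.19%). Cdk6 was at 79.0, 181, 160.0 and 95.3 CPM in Y-WT and 123, 85.8, 116 and 112 CPM in Y-TTPΔARE (log2 fold change -0.26, SE 0.25, adjusted p = 0.737). The Y-TTPΔARE libraries lay inside the range of the Y-WT libraries, whose lowest value came from Y-WT HSC 1. The values of 79.0 and 95.3 CPM came from Y-WT HSC 1 and 4, the libraries with the higher endothelial sums. The part of those markers was not tested. Without Y-WT HSC 1 the log2 fold change of Cdk6 was -0.36 (adjusted p = 0.246). The remaining 9 genes had log2 fold changes between -0.0016 (Rb1, SE 0.093) and 0.18 (Ccnd2, SE 0.13), and no gene of the other G1, E2F or mitosis lists was called. The difference of the TTPΔARE effect between ages was -0.54 for Cdk6 (SE 0.32, adjusted p = 0.395), so an effect particular to middle age was not shown. Ccnd3 had the lowest unadjusted p in that test (log2 fold change -0.37, SE 0.15, adjusted p = 0.293, unadjusted p = 0.0226), the only one of the 10 under 0.05 (background 15.1%), and 0 were called by edgeR or DESeq2 (background 0.0439%).

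In young MPP3 cells 0 of the 10 genes were called by the quasi-likelihood test (background 2.54% of 12856 genes). An unadjusted p under 0.05 was found for 2 of them (background 15.2%), and Ccnd1 was called by DESeq2 and by the likelihood ratio test. Ccnd1 was at 21.7, 15.5, 14.5 and 23.2 CPM in Y-WT and at 44.8, 26.0, 27.5 and 82.2 CPM in Y-TTPΔARE. The groups did not overlap (as for 8.69% of all genes), but the Y-TTPΔARE libraries ranged widely and the highest value came from Y-TTPΔARE MPP3 4. The log2 fold change was 1.29 (SE 0.34, adjusted p = 0.118), and without that library it was 0.82 (adjusted p = 0.138). DESeq2 gave an adjusted p of 0.00594 and the likelihood ratio test 0.0108, both with all 8 libraries.

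Ccnd3 (log2 fold change 0.27, SE 0.12, adjusted p = 0.41) and Ccnd2 (0.28, SE 0.15) had fitted values of the same sign as Ccnd1, and neither was called. Cdk6 was at 260.3, 547, 417 and 384 CPM in Y-WT and 309.9, 248, 289 and 395 CPM in Y-TTPΔARE, with wide overlap (log2 fold change -0.33, SE 0.21, adjusted p = 0.557). Rbl2 had -0.34 (SE 0.21), and the other 5 genes lay between -0.17 and 0.23. Of all 12856 genes, 300 were higher and 26 lower in Y-TTPΔARE. Around the module, Cdkn1a (1.06, SE 0.22, adjusted p = 0.0417), Mycl (5.26, SE 0.41, adjusted p = 0.000168) and 4 of the 17 anti-proliferative genes above the level limit were higher. The 4 were Klf2 (3.92, SE 0.21, adjusted p = 7.16e-05) and Klf4 (2.90, SE 0.53, adjusted p = 0.0201), factors known to favour rest, and Btg1 (0.80, SE 0.12, adjusted p = 0.00668) and Btg2 (0.80, SE 0.17, adjusted p = 0.0411). Of the 20 E2F targets and the 16 genes of G2 and mitosis none was called, with medians of -0.21 and -0.33 beside -0.0024 over all genes. Myeloid progenitor markers summed to 369.8 to 1341 CPM in Y-WT and 1069 to 2378 CPM in Y-TTPΔARE MPP3 cells. The 5 erythroid markers summed to 12.1 to 27.1 and 45.2 to 87.5 CPM and the 4 megakaryocyte markers to 122 to 161 and 69.2 to 94.6 CPM, each without overlap. Within the megakaryocyte list Itga2b averaged 112 and 57.8 CPM and Pf4 18.9 and 17.7 CPM. Vwf averaged 7.28 and 7.89 CPM, the other way, and Gp1bb was near 0. The part of the 3 lists in these differences was not tested.

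With age, both pocket proteins had positive fitted values in each genotype. The share of the 10 genes called was below the background in both genotypes. A difference of the age change between the genotypes was not called for Rb1 (log2 fold change 0.12, SE 0.12, adjusted p = 0.587) or Rbl2 (-0.14, SE 0.13, adjusted p = 0.558). In WT HSCs 1 of the 10 genes was called, beside 24.0% of 13667 genes, and the same 1 was without overlap, beside 22.5%. This was Rbl2, at 207, 172, 185 and 194 CPM in Y-WT and 289.9, 269, 231, 234 and 262 CPM in M-WT (log2 fold change 0.43, SE 0.085, adjusted p = 0.0024). The call was kept with each of 16 libraries left out, and was lost with the receptor genes as a covariate (adjusted p = 0.0781), whose sum was 60.7 to 975 CPM in Y-WT and 40.6 to 199 CPM in M-WT. Rb1 was at 87.8, 64.5, 72.6 and 73.1 against 90.8, 94.3, 84.5, 85.8 and 95.1 CPM and missed the fold limit (log2 fold change 0.26, SE 0.076, adjusted p = 0.0219). Without Y-WT HSC 1, 5 of the 10 genes were called in WT, among them Ccnd3, Rb1 and Rbl2, and 5400 of all genes against 3280 with every library. Without M-WT HSC 1, 3 or 4, M-TTPΔARE HSC 2 or 3, Y-WT HSC 4 or Y-TTPΔARE HSC 2 or 4 the count was 2 or 3. Megakaryocyte markers summed to 246 to 270.1 CPM in Y-WT and 533 to 650.4 CPM in M-WT HSCs, and their part in the result was not tested. Within the list Vwf averaged 103 and 405 CPM, Itga2b 111 and 134 CPM, Pf4 44.1 and 23.9 CPM, which was lower with age, and Gp1bb was near 0. In TTPΔARE HSCs 1 gene was called, beside 12.1% of all genes. This was Rb1, at 81.5, 76.2, 67.2 and 75.3 CPM in Y-TTPΔARE and 97.9, 102 and 96.2 CPM in M-TTPΔARE, without overlap (log2 fold change 0.38, SE 0.086, adjusted p = 0.0127). That call was lost in 5 of 16 fits that left out a library (M-WT HSC 1, 2 or 4, or M-TTPΔARE HSC 2 or 3), with adjusted p between 0.0509 and 0.112, and in the likelihood ratio test (adjusted p = 0.0716).

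Cdk6 and Ccnd1 in TTPΔARE HSCs did not overlap between the ages but were not called. Cdk6 was at 123, 85.8, 116 and 112 CPM in Y-TTPΔARE and 65.8, 69.4 and 69.1 CPM in M-TTPΔARE (log2 fold change -0.70, SE 0.24, adjusted p = 0.11). Ccnd1 was at 39.1, 35.7, 41.8 and 30.9 against 53.5, 63.9 and 55.1 CPM (log2 fold change 0.62, SE 0.19, adjusted p = 0.0661). Rbl2, at 235, 234, 184 and 196 against 247, 276 and 266 CPM (log2 fold change 0.29, SE 0.096, adjusted p = 0.0926), was the fourth gene without overlap, as were 26.1% of all genes. The M-TTPΔARE libraries are the same as in the comparison of genotypes above. In WT the log2 fold change of Cdk6 with age was -0.16 (SE 0.21). The cell cycle readouts were lower with age in both genotypes, for 12 of 20 E2F targets in WT and 19 in TTPΔARE and 16 of 16 genes of G2 and mitosis in each. Of all 13667 genes, 864 were lower and 2416 higher in WT (1357 and 1340 with upper-quartile factors), and 777 lower and 876 higher in TTPΔARE. The median log2 fold changes were -0.93 in WT and -1.19 in TTPΔARE for the mitotic genes beside 0.089 and -0.002 over all genes. Examples were the mitotic cyclin Ccnb2 (in WT -1.22, SE 0.19, adjusted p = 0.000293, and in TTPΔARE -1.52, SE 0.22, adjusted p = 0.000462), and Ccne2 of the cyclin E list (in WT -0.45, SE 0.12, adjusted p = 0.0165, and in TTPΔARE -1.13, SE 0.15, adjusted p = 0.000175). Cdkn1c was higher with age in TTPΔARE (0.60, SE 0.15, adjusted p = 0.0204). Of the 5 progenitor and sort gate markers, Cd34 averaged 324 CPM in Y-WT and 202 CPM in M-WT, and 275 and 119 CPM in TTPΔARE. Flt3 (52.8 and 24.4, and 62.5 and 30.3 CPM) and Cd48 (9.77 and 2.00, and 14.8 and 2.18 CPM) were also lower with age. Kit went the other way (1229 and 1606, and 1307 and 1632 CPM), and Ly6a was higher in WT and lower in TTPΔARE. The part of these markers in the age results was not tested.

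The order of the 6 groups by mean level separated the ends but not the middle. Cdk6 was highest in Y-WT and Y-TTPΔARE MPP3 cells, whose ranges overlap, followed by Y-WT, M-WT and Y-TTPΔARE HSCs, whose ranges also overlap, and lowest in M-TTPΔARE HSCs, which overlap no other group. The group means of Rb1 ran from M-TTPΔARE and M-WT HSCs, which did not overlap, through the young HSCs, of which Y-WT overlapped M-WT, to the MPP3 cells, which overlapped no HSC group. Cdkn1b and Cdkn2d were near level, at group means of 11.8 to 16.1 CPM and 50.2 to 57.2 CPM, and each group overlapped the next. Ccnd1 was lowest in Y-WT MPP3 cells, at 18.7 CPM, below every library of the other groups. Over the 24 libraries and 13589 genes, the log2 CPM of Cdk6 was most like those of Gm17590 (Pearson r = 0.982), a gene on its opposite strand that shares exon bases with it, Serpinb1a (0.967) and Lypd6b (0.958). Cdk4 was most like Ran (0.996), Nap1l1 and Ppil1 (0.990 each), Rb1 like Slc39a13 (0.970), and Rbl2 like Gm45464 (0.978), which overlaps it. Nearest to Cdkn2c was Clec4e (0.945), to Ccnd2 Lrrc57 (0.954), to Ccnd1 Rtl8c (0.905) and to Ccnd3 Cept1 (0.893). Cdkn1b and Cdkn2d had no gene above 0.839 (Plgrkt at 0.809 and Cox20 at 0.839). The 24 points share the 6 groups, so the likenesses are descriptions.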

How the data were processed

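The deposited files hold raw counts per gene for each of 24 libraries, which the authors made by trimming reads with Trim Galore! and Cutadapt, aligning them with STAR to mouse mm10 and counting with featureCounts. How featureCounts treated strand and multimapping reads is not given in the sources used here, and the library kit differs between the labels and the methods of the study. The study used 3 of the 4 Y-TTPΔARE MPP3 libraries without naming them in its text, and all 4 were used here. The 10 genes and all gene lists were chosen with earlier results of these data known. Each comparison was fitted on the counts as deposited with edgeR 4.0.16 in R 4.3.3 (quasi-likelihood F test, TMM factors, filterByExpr with a minimum count of 10 and total of 15). Genotypes were compared within 8 libraries each, cell types within the 16 young libraries, and ages within the 16 HSC libraries. Calls required an adjusted p (Benjamini-Hochberg, all genes tested) under 0.05, a fold change over 1.2 (not for differences of effects) and a mean log2 CPM over 1.5. The SE is the log2 fold change divided by the square root of F. The 24 libraries held 24261371 to 39934554 counts, and no pair of them was a duplicate. All 10 genes are named in every comparison, with Zfp36, with at most the 4 called genes of largest change per list and comparison, and with the 3 genes most like each of the 10, of which some are printed. CPM per kilobase used the union of annotated exons, and gene positions and 3′ UTRs came from GENCODE M21, another release than the one counted. Same-numbered TTPΔARE libraries of HSCs and MPP3 cells had correlations of their deviations from group means of 0.145 to 0.229. Those of WT were 0.025 to 0.18, and Y-WT and Y-TTPΔARE MPP3 3 reached 0.211. Differently numbered libraries of the 2 cell types were not compared, so these values do not show that the numbers pair samples. The numbers were used as pairs in alternative fits only. Alternatives were DESeq2 1.42.0, the likelihood ratio test, RLE and upper-quartile factors, no low-count filter, the replicate block, the summed receptor genes as a covariate, all 24 libraries in 1 fit, and each library left out. A replicate block within genotype was chosen after seeing the data. The fits were tested on simulated data. A few genes of the lists are not reported here by name. Figures were drawn with matplotlib 3.10.9 under Python 3.11.15.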

Additional observations from a re-analysis of the deposited data

Results flagged for a closer look

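Among 50 sets of libraries (the 10 genes in each of the 5 groups with at least 4 libraries), 3 had 1 library far from the others by Dixon's ratio, where chance gives about 1 in 20. Ccnd1 was at 52.2 CPM in Y-WT HSC 1, with the next library of that group at 29.9 CPM, and Y-WT HSC 1 also had the lowest receptor gene sum of its group. Ccnd2 was at 313 CPM in Y-TTPΔARE MPP3 3, with the next at 472 CPM. Cdkn2c was at 8.65 CPM in M-WT HSC 4, with the next at 12.5 CPM, which puts that library inside the range of the M-TTPΔARE HSC libraries (7.99 to 9.40 CPM).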

How the results depend on the processing

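Of 37 results followed for the 10 genes, 12 were called, 7 of them (Cdk6, Cdkn2c and Rb1 between the cell types in both genotypes, and Cdk4 in TTPΔARE) under every setting and left-out library tried, and none of the 12 changed sign. The M-TTPΔARE group has 3 libraries, which limits what its comparisons can show. Upper-quartile factors moved the median log2 fold change of all genes by -0.13 between the cell types in WT, by -0.10 with age in WT, and by 0.13 and 0.12 in the differences between genotypes across cell types and across ages. Of 53 other values of the 10 genes, 27 changed sign under some setting and 4 were called under one. The causes of the changes below were not tested.

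The number of the 10 genes called between genotypes in middle-aged HSCs was 2 with DESeq2, with upper-quartile factors and with no low-count filter, and 0 with the replicate block, the receptor covariate and all 24 libraries in 1 fit. In MPP3 cells it was 1 with DESeq2, the likelihood ratio test, no filter, the replicate block and all 24 libraries. Between the cell types in WT it was 7 with upper-quartile factors. With age in WT it was 3 with no filter and 0 with the covariate. With age in TTPΔARE it was 4 with DESeq2 and with the covariate, 3 with upper-quartile factors, 2 with RLE factors and with no filter, and 0 with the likelihood ratio test. The log2 fold change of Cdk6 with age in WT was 0.084 with the covariate.

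The number of all genes called between genotypes in young HSCs was 304 with DESeq2, 146 with the likelihood ratio test, 73 with no filter, 32 with the covariate and 18 with all 24 libraries. In middle-aged HSCs it was 823 with DESeq2, 842 with no filter, 108 with the replicate block, 94 with the covariate and 53 with all 24 libraries, and in MPP3 cells 766 with DESeq2, 540 with the likelihood ratio test and 1244 with all 24 libraries. For the difference between genotypes across cell types it was 335, 202 and 261 in that order, with 113 in the comparison as reported. With age in WT it was 1685 with the covariate and 1874 with all 24 libraries, and in TTPΔARE 2614 with DESeq2 and 805 with all 24 libraries. For the difference across ages it was 160 with DESeq2, 27 with the likelihood ratio test, 16 with no filter, 3 with the replicate block, and 2 with the covariate and with all 24 libraries.

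With each library left out, the number of the 10 genes called ranged from 0 to 2 between genotypes in middle-aged HSCs, 4 to 6 between the cell types in each genotype, 1 to 5 with age in WT and 0 to 3 with age in TTPΔARE. The number of all genes called ranged from 0 to 12 between genotypes in young HSCs, 68 to 299 in middle-aged HSCs, 185 to 347 in MPP3 cells, 3368 to 5364 between the cell types in WT, 3514 to 4978 in TTPΔARE, 66 to 132 in their difference, 2540 to 5400 with age in WT, 751 to 1892 in TTPΔARE and 0 to 56 in their difference. The log2 fold change of Cdk6 ranged from -0.24 to 0.058 with age in WT, and its difference between genotypes across cell types from -0.38 to 0.071.

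The replicate block, with replicate numbers as pairs, raised the count of called genes among the 10 between the cell types in TTPΔARE from 5 to 6 (Ccnd2), as did a block within genotype chosen after seeing the data. In all, Ccnd2 in TTPΔARE was called under 6 of the 9 other settings, so its call did not need the pairs. Same-numbered WT and TTPΔARE libraries had correlations of deviations from -0.15 to 0.21. The highest lay inside the range of 0.145 to 0.229 of the same-numbered TTPΔARE HSC and MPP3 libraries.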

Other observations

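Outside the comparisons described, Cdk18, a kinase of the PCTAIRE family, was among the called genes of a list of 22 other cyclins and CDKs: it was lower in MPP3 cells than in HSCs (-0.91, SE 0.16, adjusted p = 0.000595 in WT, and -1.22, SE 0.16, adjusted p = 4.21e-05 in TTPΔARE, log2 fold changes) and higher in M-TTPΔARE than in M-WT HSCs (0.32, SE 0.064, adjusted p = 0.0349). Of that list, 5 genes were higher and 2 lower in MPP3 cells in WT, and 2 were higher and 3 lower in TTPΔARE. Klf2 was the only gene of the anti-proliferative list with a called difference between the genotypes in its MPP3 against HSC change (3.77, SE 0.44, adjusted p = 0.000496), and Mycl the only one of the list upstream of cyclin D (4.60, SE 0.82, adjusted p = 0.0154).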
